A study of Mus musculus with 17 samples.

Results

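The genes described here are 5 members of the caveola coat: the cavins Cavin1, Cavin2 and Cavin3 and the caveolins Cav1 and Cav2. They were taken by symbol as 5 of the 25899 rows of the series' count table, and the set was chosen on a measured value, the much higher Cavin1 level with 4OHT than with DMSO. For these 5 genes that contrast is therefore given as values with no test, and they are tested only in comparisons of the 12 libraries of the inhibitor groups, none of which enters it. Genes outside the set are tested in that contrast too.

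The study measured newly made RNA in E14tg2a mouse embryonic stem cells of the 129SV background. These cells lack ERK1 and ERK2 and express a FLAG-tagged ERK2 Q103A, an analog-sensitive kinase that the bulky inhibitor PP1 can block, together with cRAF-ErT2, a RAF kinase fused to an oestrogen receptor domain that 4-hydroxytamoxifen (4OHT) switches on. After growth with the GSK3 inhibitor Chir99021, all groups spent 24 h in serum and LIF with the FGF receptor inhibitor PD173074 at 250 nM, and received 5 mM ethynyl uridine for the last 15 min, so that labelled RNA could be captured by click chemistry. The 6 groups were DMSO (n = 2, clones b and c) and, with 3 libraries each from clones a, b and c, 250 nM 4OHT for 2 h, a MEK inhibitor alone at 1 µM (MEKi), PP1 alone at 2 µM, and each inhibitor together with 250 nM 4OHT for 2 h. Replicates are clones of this line, so p-values measure the spread between libraries of different clones within a group. The same clones recur in the groups, and the main fit did not pair them. In bulk RNA fewer cells making a transcript cannot be told from less RNA per cell.

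Caveolae are flask-shaped pits of the plasma membrane, rich in cholesterol and common in fat, muscle and endothelium. Caveolins are integral membrane proteins that insert as a hairpin. CAV1 is needed for caveolae outside striated muscle and CAV2 assembles with it. Cavins are cytoplasmic proteins that coat the bulb: CAVIN1 is required for caveola formation, while CAVIN2 and CAVIN3 join it and tune shape and traffic.

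Caveolins and cavins lie at 4 places in the genome (mm10, GENCODE vM21). Cavin1 (ENSMUSG00000004044.9) occupies chromosome 11, 100956733 to 100970887, on the minus strand. Cavin2 lies on chromosome 1, 51289126 to 51302960, plus strand, and Cavin3 on chromosome 7, 105480083 to 105482300, minus strand. Cav2 (chromosome 6, 17281185 to 17289115) and Cav1 (chromosome 6, 17306335 to 17341452) share the plus strand and are 17219 bp apart.

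RefSeq promoter windows of GRCm38.p6, which run from 250 bases before to 50 bases after a start site, were found for 4 of the 5 members. The 250 bases before the Cav1 and Cav2 starts are printed because this neighbouring pair encodes the membrane part of the coat and gave few counts, at most 11 a library, whereas Cavin1 gave up to 4178. Both are shown 5′ to 3′ on the plus strand, at chr6:17306085-17306334 for Cav1 and chr6:17280935-17281184 for Cav2. Capitals mark matches to the motifs searched that lie wholly in these bases.
Cav1: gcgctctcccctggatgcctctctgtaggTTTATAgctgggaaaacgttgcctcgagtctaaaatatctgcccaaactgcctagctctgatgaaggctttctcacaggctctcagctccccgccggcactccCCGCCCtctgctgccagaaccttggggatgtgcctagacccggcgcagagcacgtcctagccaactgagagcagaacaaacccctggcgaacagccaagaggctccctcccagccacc
Cav2: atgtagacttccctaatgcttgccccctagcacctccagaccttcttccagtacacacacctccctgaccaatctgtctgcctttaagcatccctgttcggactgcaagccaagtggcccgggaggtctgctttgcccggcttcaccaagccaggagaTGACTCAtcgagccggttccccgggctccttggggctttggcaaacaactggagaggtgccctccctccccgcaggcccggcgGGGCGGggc

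These motifs were searched on both strands of the whole windows: the CArG box of SRF by name, the ETS core CCGGAA, the AP-1 site TGANTCA, the EGR site GCGNGGGCG, the CRE TGACGTCA, the GC box GGGCGG and the TATA box TATAAA. The Cav2 window held the AP-1 site at -92 to -86, a match present in 7.81% of 32851 windows, and 2 GC boxes that share a base at -4. The first Cav1 window held 2 GC boxes and, on the other strand, TATAAA at -221 to -216. A second Cav1 window and the Cavin2 window held none of them. The 2 Cavin1 windows, whose starts differ by a few bases, each held the same single GC box on the other strand, at -7 to -2 in the first and -9 to -4 in the second, a motif found in 35.7% of windows, and none of the CArG (1.63% of windows), ETS (14.9%), AP-1, EGR (5.55%), CRE (1.79%) or TATA (13.6%) letters. These matches describe letters in a window and say nothing of factor binding. Both Cavin1 windows lie inside the first exon of a GENCODE Cavin1 transcript and are not printed. By that annotation the Cavin1 search covered exon bases, and the bases before the GENCODE start of the gene were not searched.

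Libraries held 5239690 to 11093390 counts, and 14907 of 25899 genes passed the filter on low counts, which asks for about 1.08 CPM in enough libraries. CPM are counts scaled to a common library size, here after trimmed-mean (TMM) scaling. Reads over genes longer than 150000 bp gave a background of 1.62 to 5.13 CPM per Mb in most libraries, 11.3 in MEKi clone a and 8.43 in MEKi with 4OHT clone b. Mapk3, which encodes ERK1, stood at 7.59 to 17.9 CPM in all libraries, although the line is labelled as a knockout; counts over a whole gene do not check a small deletion. As a check of the treatment, the ERK targets Spry4, Dusp6, Egr1 and Fos were highest with 4OHT alone. Their means with MEKi and 4OHT were 0.0668% (Egr1) to 1.99% (Dusp6) of the 4OHT mean. Summed markers of embryonic stem cells stood at 2623 to 3423 CPM, with 8 of 8 genes passing the filter. By contrast 1 of 8 fibroblast markers and 0 of 4 adipocyte markers passed, with sums of at most 8.06 and 1.59 CPM, and Lum and Fabp4 never exceeded 3 counts.

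Cavin1 carried 98.3% of all counts of the 5 genes, 12751 counts over 17 libraries. Its counts were 68 and 83 in the DMSO libraries of clones b and c, and 4178, 2489 and 3780 in the 4OHT libraries of clones a, b and c. With MEKi alone they were 81, 98 and 84, and with MEKi and 4OHT 116, 112 and 136. With PP1 alone Cavin1 had 77, 83 and 80 counts, and with PP1 and 4OHT 514, 475 and 297. The 3 libraries with 4OHT alone are far above all others, the 3 with PP1 and 4OHT stand between, and the other 11 hold at most 136 counts.

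On the CPM scale the mean level of Cavin1 was 429 ± 14.1 with 4OHT (SD, n = 3), 44.9 ± 5.08 with PP1 and 4OHT (n = 3) and 6.64 ± 1.48 with DMSO (n = 2). It was 12.6 ± 6.18 with PP1, 11.8 ± 1.29 with MEKi and 4OHT, and 11.4 ± 4.08 with MEKi (n = 3 each). In descending order the groups are therefore 4OHT, PP1 with 4OHT, PP1, MEKi with 4OHT, MEKi and DMSO. The first 2 steps separate without overlap. PP1 (8.25 to 19.6 CPM), MEKi with 4OHT (11.01 to 13.3) and MEKi (8.14 to 16.0) overlap one another. Per kilobase of exon, the Cavin1 level ranked at the 31.9th percentile of 14795 genes in DMSO, at the 98.9th with 4OHT and at the 72.3rd with PP1 and 4OHT.

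**Figure D1:**
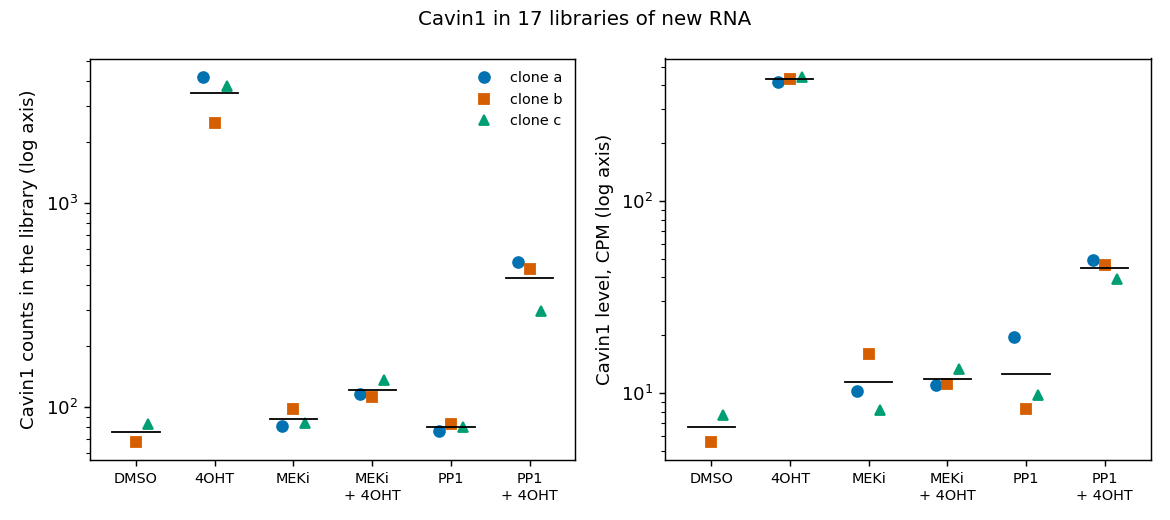
Cavin1 in each of the 17 libraries, as counts (left, log axis) and as CPM after TMM scaling (right, log axis), by treatment group; points are libraries, marker shapes are clones and lines are group means. The 4OHT libraries sit at 414 to 443 CPM and those with PP1 and 4OHT at 39.3 to 49.2 CPM, above every library of the remaining 4 groups.

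The contrast that chose the set, 4OHT against DMSO, had a fitted log2 difference in Cavin1 of 6.02 ± 0.29 (SE), or 64.9-fold, the tenth highest value among all tested genes. In clones b and c, which have both libraries, the ratio of CPM was 76.7 and 57.7. No DMSO library of clone a was analysed here. Sharing those libraries, MEKi with 4OHT was lower than 4OHT alone by a log2 difference of -5.18 ± 0.23, and PP1 with 4OHT by -3.25 ± 0.20. MEKi and PP1 alone were above DMSO by 0.74 ± 0.33 and 0.78 ± 0.33. All of these are descriptions with no test.

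Among tested comparisons, Cavin1 rose with 4OHT in the presence of PP1. The fitted difference was 1.99 ± 0.25 on the log2 scale, 3.98-fold with a 95% interval of 2.76 to 5.74 (edgeR quasi-likelihood test, adjusted p = 4.3e-05), and it was higher in 3 of 3 clones. The clone ratios were 2.51 in clone a, 5.59 in clone b and 4.01 in clone c, with the lowest ratio in the clone whose PP1 library is the smallest of all. Among 14907 genes 18.4% were called higher and 12.8% lower in this comparison, and 21 genes had a larger log2 rise. As a share of the difference between 4OHT and DMSO, the Cavin1 rise over its own control was 7.66% with PP1.

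With the MEK inhibitor present, no 4OHT effect on Cavin1 was detected. The log2 difference was 0.10 ± 0.27, a fold of 1.07 with an interval of 0.716 to 1.61 (edgeR adjusted p = 0.856), so a rise above 1.61-fold lies outside the interval. Ratios of 1.08, 0.697 and 1.64 in clones a, b and c fell on both sides of 1. In this comparison 7.65% of genes were called higher and 7.03% lower.

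Setting the inhibitors side by side with 4OHT present, Cavin1 was higher with PP1 than with MEKi by 1.93 ± 0.23 (log2), or 3.80-fold (edgeR adjusted p = 1.95e-05). The ratio was 4.47, 4.13 and 2.95 in clones a, b and c, and the groups did not overlap. This comparison called 15.2% of genes higher and 13% lower. Without 4OHT the inhibitors did not differ detectably: the log2 difference was 0.04 ± 0.29, with a fold interval of 0.664 to 1.58 (edgeR adjusted p = 0.996). Here 0.0738% of genes were called higher and 0% lower.

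The difference between the 2 responses was itself tested. The 4OHT effect on Cavin1 was larger with PP1 than with MEKi by 1.89 ± 0.37 on the log2 scale, or 3.71-fold (edgeR adjusted p = 0.00374). Genes called in this interaction made up 7.41% in the same direction and 4.86% in the other. Leaving out any single library kept the interaction between 1.60 and 2.21, with adjusted p of at most 0.02.

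**Figure D2:**
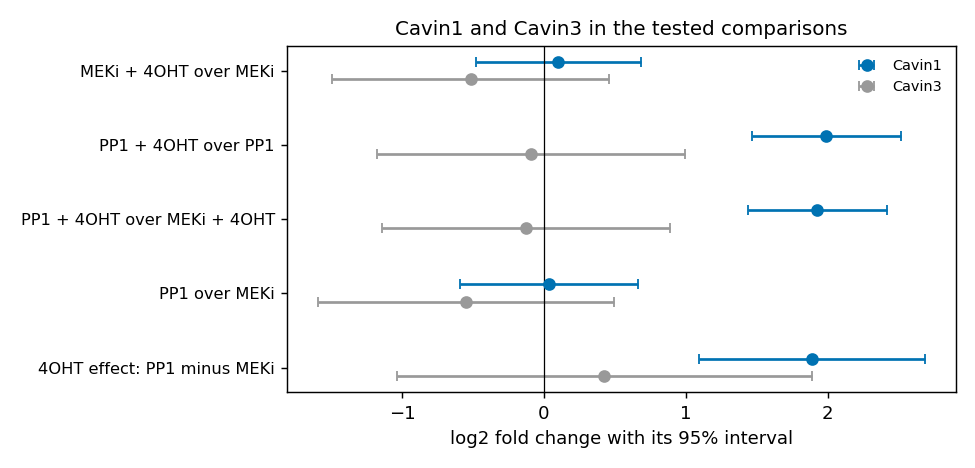
Fitted log2 fold changes of Cavin1 (blue) and Cavin3 (grey) in the 5 comparisons of libraries that did not choose the set, with 95% intervals. The Cavin1 intervals clear 0 in the 3 comparisons that involve PP1 with 4OHT, at 1.99, 1.93 and 1.89, and every Cavin3 interval spans 0.

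Cavin1 in the 8 libraries without 4OHT had an unusual property that bears on small differences that involve those groups. Its counts spanned only 68 to 98, a 1.44-fold range, while the effective library sizes spanned a 3.10-fold range. Of 1475 tested genes with a mean of 60 to 110 counts in the same libraries, 4 had so narrow a range of counts (Cavin1 included), and the median gene spanned 3.35-fold. The CPM values of 5.59 to 19.6 thus fall in step as effective library size rises: the highest belongs to PP1 clone a, the smallest library, and the lowest to DMSO clone b, the largest. A group of 14 high-count loci that varied together held 42.0% of the counts in PP1 clone a. It held 32.6% in MEKi clone b, which had the next highest Cavin1 CPM (16.0), and 12.4 to 21.7% in the rest of these libraries. The part of those loci in this pattern was not tested. DMSO libraries lie below all inhibitor libraries in CPM (5.59 and 7.68 against 8.14 or more), but their counts of 68 and 83 overlap the 77 to 98 of the inhibitor groups. The MEKi and PP1 libraries are also the controls of the 4OHT effects with each inhibitor. By counts the MEKi libraries (81 to 98) lie below those with MEKi and 4OHT (112 to 136), while by CPM the 2 groups overlap. The narrow range of counts was singled out after its values were seen.

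Set beside the 4 checked ERK targets, Cavin1 with PP1 and 4OHT reached 10.5% of its 4OHT mean, near Egr1 (9.50%) and Fos (11.7%) and below Spry4 (33.4%) and Dusp6 (55.9%). In unstimulated cells MEKi alone brought those 4 genes from 2.66 to 27.7% of their 4OHT means in DMSO to 0.294 to 8.81%. Cavin1 showed no such fall, at 1.55% in DMSO and 2.67% with MEKi. The Cavin1 shares rest on CPM and on 2 DMSO libraries, and by counts DMSO (68 to 83) and MEKi (81 to 98) overlap. All these shares have libraries in common with the choosing contrast and were not tested.

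Cavin3, the smallest member gene, was the only other one to pass the filter, at 4 to 24 counts a library and 166 in all. Its counts were 9 and 10 with DMSO and 8, 7 and 7 with 4OHT in clones a, b and c. They were 24, 7 and 7 with MEKi, and 8, 17 and 9 with MEKi and 4OHT. PP1 alone gave 4, 11 and 9, and PP1 with 4OHT 12, 12 and 5. The highest 2 counts belong to MEKi clone a and MEKi with 4OHT clone b, the libraries with the highest background; the part of that background was not tested. By counts the 4OHT libraries lie below the DMSO libraries, but by CPM these 2 groups overlap (0.794 to 1.21 against 0.740 to 0.925). By CPM the PP1 libraries, at 1.02 to 1.10, lie above DMSO, but their counts of 4, 11 and 9 overlap the 9 and 10 of DMSO. Pooled over each group, the exact Poisson intervals overlap, at 0.694 to 1.61 CPM with PP1 and 0.498 to 1.29 with DMSO. The Cavin3 difference between PP1 and DMSO was not tested.

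No tested comparison called Cavin3, but its intervals are wide. The 4OHT effect was -0.52 ± 0.47 on the log2 scale with MEKi (interval -1.50 to 0.46, edgeR adjusted p = 0.516) and -0.09 ± 0.52 with PP1 (edgeR adjusted p = 0.912). PP1 differed from MEKi by -0.13 ± 0.49 with 4OHT and by -0.55 ± 0.50 without it (edgeR adjusted p = 0.88 and 0.984), and the interaction was 0.43 ± 0.71 (edgeR adjusted p = 0.785). As a description, 4OHT stood above DMSO by 0.13 ± 0.59. Cavin3 overlaps Gm45667, an unconfirmed gene on the opposite strand with 0 to 12 counts a library, and whether counting used strand is not given in the sources used here, so their reads may not be separable. Per kilobase of exon with 4OHT, Cavin1 stood 211-fold above Cavin3, or 71.5-fold per kilobase of gene span.

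Cav1, whose product forms the caveola scaffold, had 36 counts in all 17 libraries together and 0 in 7 of them. Its counts were 3 and 6 with DMSO, and 3, 1 and 0 with 4OHT in clones a, b and c. PP1 clone b held 11 counts and no other library more than 6. Pooled over a group, the level ran from 0.0707 CPM with PP1 and 4OHT (exact Poisson 95% interval 0.00856 to 0.255) to 0.542 CPM with PP1 (0.280 to 0.947). For 4OHT it was 0.164 CPM (0.0446 to 0.419) against 0.392 CPM (0.179 to 0.744) for DMSO. The intervals of 4OHT and DMSO overlap, those of PP1 with 4OHT and PP1 do not, and 11 of the 12 counts with PP1 came from clone b. They cover counting error only.

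Cav2 and Cavin2 were nearer still to 0. Cav2 had 7 counts in all, none in 11 libraries and at most 2 in any. Cavin2 had 13 counts, none in 9 libraries and at most 4, in MEKi clone c; 8 of the 13 lay in the 3 MEKi libraries. With 4OHT each had 1 count in 3 libraries, a pooled level of 0.0410 CPM with an upper limit of 0.228. The Cavin2 count with PP1 and 4OHT was 0 in all 3 libraries, with an exact Poisson upper limit of 0.130 CPM. Given the background per Mb of each library, 8.37 counts were expected over the Cavin2 span, 21.2 over Cav1 and 4.80 over Cav2, so the observed counts were 1.55, 1.70 and 1.46 times background. The same ratio was 124 for Cavin3 and 1489 for Cavin1. The expected counts scale with gene span, and whether reads were counted over exons or whole genes is not given. Were only exons counted, these ratios would be too high for genes with a larger exon share than the long genes. Those ratios are over all libraries, and single groups stood further above background: 9 counts of Cav1 against 2.39 expected with DMSO, 12 against 3.41 with PP1, and 8 of Cavin2 against 2.17 with MEKi. With 4OHT alone Cav1 had 4 counts against 3.05 expected. Each lies within an annotated antisense gene: 9330175M20Rik over Cavin2 and Gm15581 over both caveolins. Neither was analysed here.

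**Figure D3:**
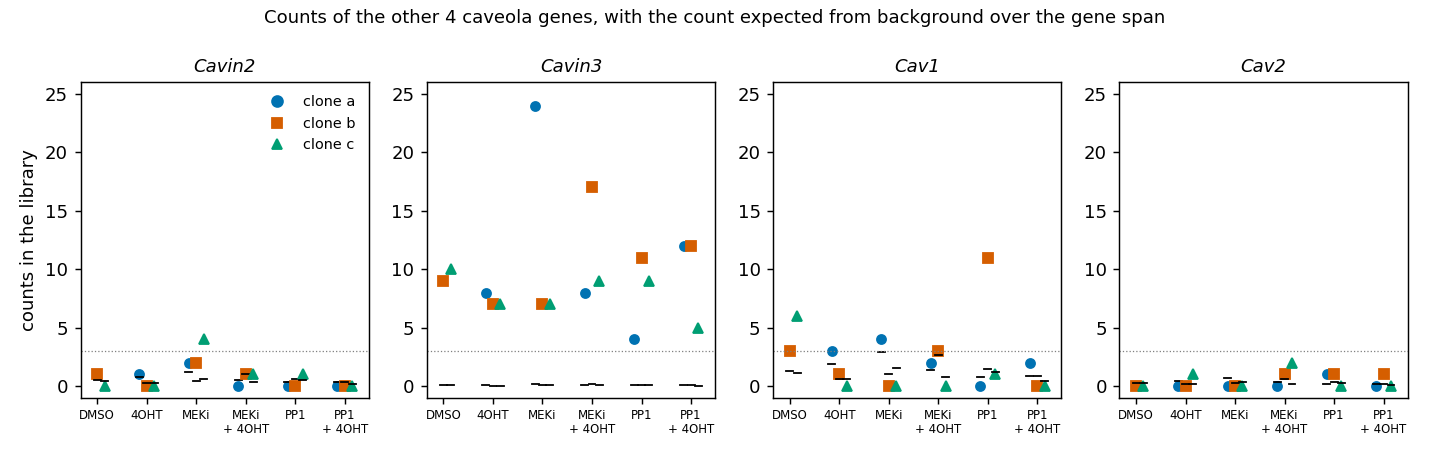
Counts of Cavin2, Cavin3, Cav1 and Cav2 in each library by treatment group; marker shapes are clones, short black lines are the counts expected from each library's background over the gene span, and the dotted line marks 3 counts. Cavin3 lies above its background line in all 17 libraries, while the other genes sit at 0 to 11 counts, with Cav1 in PP1 clone b (11) and Cavin2 in MEKi clone c (4) the highest of each.

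The muscle members of the same families gave a similar split. Cav3, the muscle caveolin, had 24 counts in all and at most 6, in PP1 clone b, and was not tested. Cavin4, the muscle cavin, stood at 26.4 ± 1.68 CPM with DMSO (n = 2) and 35.8 ± 4.45 with 4OHT (n = 3), a log2 difference of 0.45 ± 0.14 (edgeR adjusted p = 0.0119). In the inhibitor groups it lay at 22.7 to 25.5 CPM on average and was not called with either inhibitor (0.18 ± 0.14 with PP1 and -0.01 ± 0.13 with MEKi; edgeR adjusted p = 0.334 and 0.961). Cavin4 begins 382 bp downstream of Tmeff1 on the same strand, which stood at 239 ± 6.37 CPM with DMSO and 275 ± 11.6 with 4OHT. The part of that neighbour in the Cavin4 counts was not tested.

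The nearest protein-coding genes on either side of Cavin1 showed much smaller differences between treatments. Stat3, a transcription factor downstream of LIF, lies 17192 bp away and stood at 128 to 169 CPM in all libraries, with a 4OHT to DMSO difference of -0.07 ± 0.08 (edgeR adjusted p = 0.543). With 4OHT it was higher with PP1 than with MEKi by 0.24 ± 0.08 (edgeR adjusted p = 0.0185), against 1.93 for Cavin1. Atp6v0a1, a subunit of the vacuolar proton pump, lies 38564 bp away on the other side and stood at 30.8 to 46.2 CPM. Its difference between 4OHT and DMSO was 0.30 ± 0.11 (edgeR adjusted p = 0.0324), and its 4OHT effect with PP1 was -0.17 ± 0.11 (edgeR adjusted p = 0.218).

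**Figure D4:**
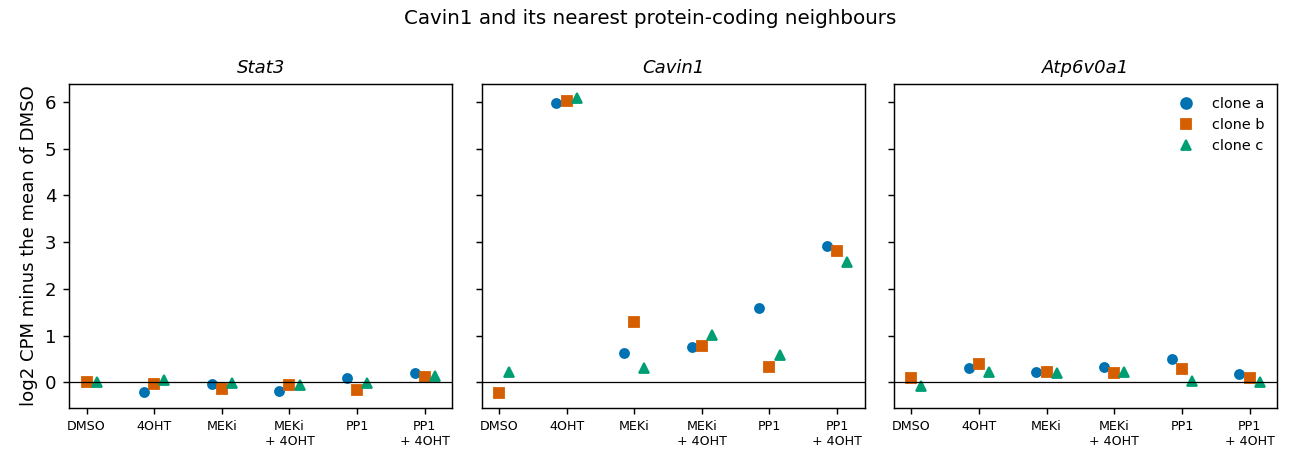
Log2 CPM of Stat3, Cavin1 and Atp6v0a1 in each library, minus the mean of the DMSO libraries, by treatment group; marker shapes are clones. Cavin1 libraries with 4OHT lie about 6.02 above DMSO, while the points of both neighbours stay close to 0.

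Partners and relatives of caveolae were followed in 4 lists of other genes, 51 in all, of which 47 were tested. In 4OHT against DMSO, 25.7% of all genes were called higher and 26.3% lower. Of the 47 listed genes 16 were higher and 10 lower, and their median log2 difference was 0.20 against -0.02 for all genes tested. Scaled by library totals alone, the median of all genes moved to -0.32 and the listed counts were 9 higher and 12 lower.

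Coat and neck partners had 5 of 15 tested genes higher and 2 lower. The largest changes were in Ehd4, a membrane-bending ATPase (1.51 ± 0.11, edgeR adjusted p = 1.1e-10), Fyn, a SRC-family kinase (1.11 ± 0.13), and Dnm1, a dynamin that cuts membrane necks (-1.19 ± 0.20). Ehd1 rose by 0.78 ± 0.11. Ehd2, the ATPase that sits at the caveola neck, was at 0.39 ± 0.27 (edgeR adjusted p = 0.248). Pacsin2, an F-BAR protein of the neck, was at 0.06 ± 0.08 (edgeR adjusted p = 0.579).

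Raft proteins had 1 of 6 tested genes higher and 1 lower. Stom, which encodes the raft protein stomatin, went from 5.18 CPM with DMSO to 48.3 ± 9.13 with 4OHT (3.22 ± 0.21, edgeR adjusted p = 5.99e-12). Flot2 fell by 0.62 ± 0.13 (edgeR adjusted p = 0.000349), and its partner Flot1 was at -0.42 ± 0.19 (edgeR adjusted p = 0.0662).

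Receptors and enzymes described in caveolae had 2 of 12 tested genes higher and 5 lower. Among the lower were Egfr, the EGF receptor (-1.10 ± 0.15, edgeR adjusted p = 1.49e-06), Igf1r, the IGF1 receptor (-0.86 ± 0.11), Insr, the insulin receptor (-0.66 ± 0.11), and Pdgfrb, a PDGF receptor (-1.52 ± 0.32). Clathrin coat genes, which serve another route of endocytosis, had 8 of 14 higher and 2 lower with a median of 0.39. Cltc, the clathrin heavy chain, was at 1.45 ± 0.16, and the adaptor subunits Ap2b1 and Ap2a1 were at 0.76 ± 0.08 and 0.72 ± 0.11. Epn1, an adaptor at 0.73 ± 0.09, was no longer called with library totals (0.43, edgeR adjusted p = 0.069).

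With PP1 present, 4OHT called 8 of the 47 listed genes higher and 6 lower, against the 18.4% and 12.8% of all genes given above. Stom again rose, by 0.96 ± 0.21 (edgeR adjusted p = 0.0011), and Clta, a clathrin light chain, by 0.35 ± 0.08. Egfr (-0.59 ± 0.14), Igf1r (-0.42 ± 0.10), Epn2 (-0.39 ± 0.08) and Abl1 (-0.35 ± 0.08) fell, and none of these 4 was called with library totals, where 1 listed gene was lower. The 8 higher became 5, 3 and 4 without PP1 clone b, PP1 with 4OHT clone a and PP1 with 4OHT clone b. Ehd1 was at 0.36 ± 0.09 (edgeR adjusted p = 0.00476) and lost its call without PP1 with 4OHT clone b (edgeR adjusted p = 0.065).

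With MEKi present, 4 of the 47 listed genes were called higher and 1 lower, against 7.65% and 7.03% of all genes. Ehd1 rose by 0.47 ± 0.09 (edgeR adjusted p = 0.00114) and Igf1r fell by 0.67 ± 0.10 (edgeR adjusted p = 2.75e-05; not called with library totals, 0.0973). The 4 higher became 2 without MEKi clone a, MEKi clone c or MEKi with 4OHT clone c, and 1 without MEKi with 4OHT clone a. Stom was at -0.25 ± 0.20 and Ehd4 at 0.03 ± 0.10 (edgeR adjusted p = 0.467 and 0.903).

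PP1 against MEKi with 4OHT present called 3 of the 47 listed genes higher and 10 lower, against 15.2% and 13% of all genes. Of the coat and neck partners 4 of 15 were lower and none higher, with Ehd2 at -1.03 ± 0.25 (edgeR adjusted p = 0.00318). Ehd2 had 28, 30 and 25 counts with PP1 and 4OHT and 49, 71 and 65 with MEKi and 4OHT in clones a, b and c. Its groups did not overlap, and its direction in this comparison is opposite to that of Cavin1. The 4OHT effect on Ehd2 was not called with PP1 (-0.47 ± 0.27, edgeR adjusted p = 0.205) or with MEKi (0.48 ± 0.24, edgeR adjusted p = 0.205). Nor was its interaction called (-0.94 ± 0.37, edgeR adjusted p = 0.102). Pacsin2 was at -0.23 ± 0.08 (edgeR adjusted p = 0.0254), a call lost without MEKi with 4OHT clone a, PP1 with 4OHT clone b or PP1 with 4OHT clone c (0.0576, 0.075 and 0.113). Stom was higher by 0.81 ± 0.19, Egfr lower at -0.94 ± 0.13 and Epn2, a clathrin adaptor, lower at -0.67 ± 0.08. Without 4OHT 0 of 47 listed genes were called by edgeR, DESeq2 or limma-voom, and 0 had an unadjusted edgeR p under 0.05.

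**Figure D5:**
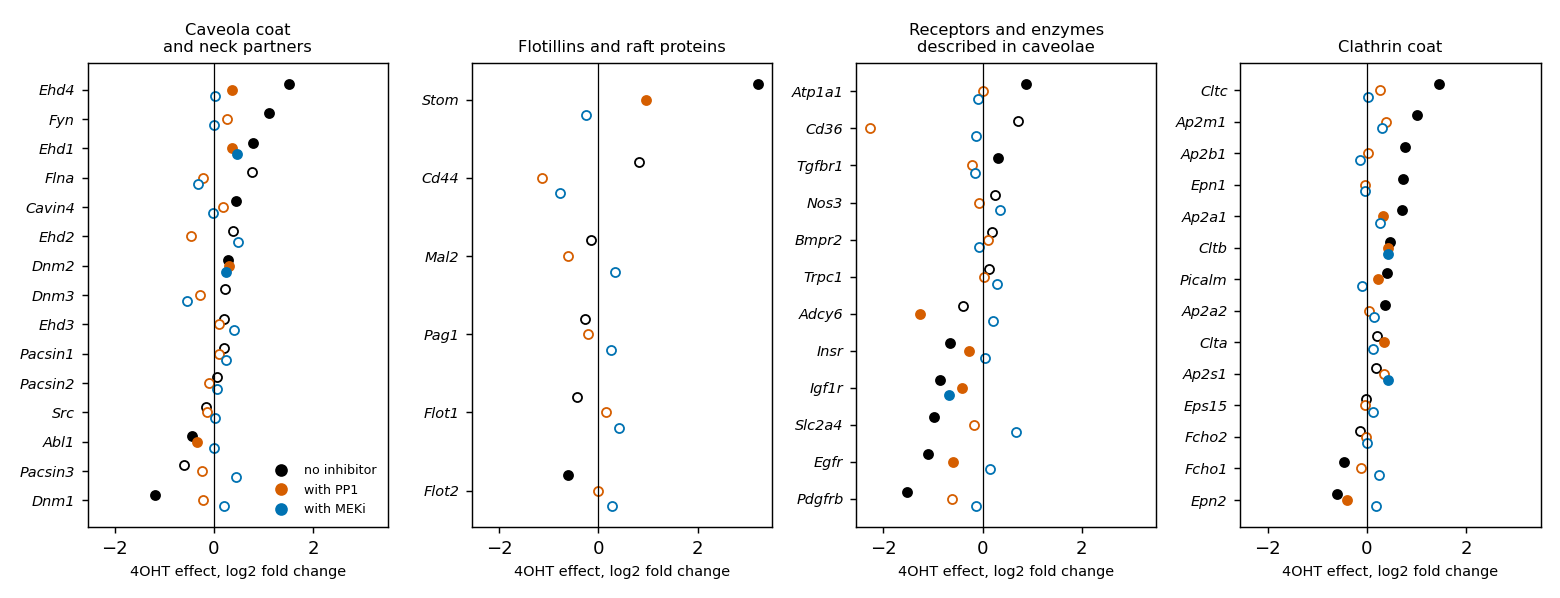
The 4OHT effect on 47 genes in 4 lists, as log2 fold change without inhibitor (black), with PP1 (orange) and with MEKi (blue); filled points were called by edgeR at an adjusted p under 0.05 and open points were not. Stom, the raft protein gene, reads 3.22 without inhibitor, 0.96 with PP1 and -0.25 with MEKi.

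Over the 17 libraries, the genes whose log2 CPM pattern was most like that of Cavin1 among 12231 genes were Trim8 (Pearson r = 0.995), Hmox1 (0.994), Midn (0.991), Vasp (0.991) and Sparc (0.990). Their group means with DMSO, 4OHT and PP1 with 4OHT show the shared order of groups at smaller folds: Midn stood at 58.4, 567 and 169 CPM, and Hmox1 at 32.2, 192 and 63.3 CPM. A ranking by Spearman correlation shared 0 of these 5 genes. The libraries fall into the 6 treatment groups, so these values describe likeness over treatments. No such ranking could be made for Cav1, which was under the filter.

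Among summed markers of other cell types, those of endothelium and primitive endoderm were lower in the 2 groups in which Cavin1 was highest. Summed endothelial markers, of which 5 of 6 passed the filter, stood at 94.2 to 102 CPM with 4OHT, 113 to 121 with PP1 and 4OHT, and 159 to 192 in the other groups. Primitive endoderm markers (5 of 6) summed to 7.61 to 12.5 CPM in those 2 groups and 14.4 to 24.3 elsewhere, and smooth muscle markers (3 of 4) to 7.22 to 12.5 CPM over all groups. Fibroblast markers were at 1.99 to 4.46 CPM with 4OHT and 4.26 to 4.77 with DMSO. The smooth muscle sum was higher with 4OHT than with DMSO, at 10.02 to 11.7 against 7.22 to 8.38 CPM, beside a Cavin1 level of 429 against 6.64 CPM. Adipocyte sums overlapped, at 0.234 to 1.59 with 4OHT and 0.411 to 0.648 CPM with DMSO. Only sums are given, so a single gene may carry most of a sum. A sum does not show that cells of that type were present. The part of these markers in the Cavin1 level was not tested.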

How the data were processed

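New RNA was measured in 17 libraries of 6 groups, grouped by the labels' treatment and clone. Per the submitters' processing notes, STAR and featureCounts were used with mm10; no source used here gives versions, feature type or strand setting. The deposited table holds the authors' raw counts per gene symbol. No 2 columns were identical. Here edgeR 4.0.16 (R 4.3.3, limma 3.58.1) scaled the counts by TMM, kept genes by filterByExpr with a minimum of 10 counts and fitted 1 term per group over all libraries by robust quasi-likelihood (11 residual degrees of freedom), with Benjamini-Hochberg adjustment over 14907 genes at 0.05. The procedure was tested on simulated data with the same spread for all genes and no differences between clones, a simpler setting than the real libraries.

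Levels are CPM, with 0.5 added to counts in log2 levels. A background rate was set for each library from 1470 genes longer than 150000 bp, as the value of CPM per Mb under which 5% of them lie. Exact Poisson intervals of pooled levels cover counting error only. Intervals of fitted differences and folds were set from the SE of the fit, which includes the spread between libraries. GENCODE vM21 held 25663 of 25899 symbols (99.1%).

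Tried as alternatives were DESeq2 1.42.0 (as size factors and as a test), library totals, limma-voom, 2 other filters and the clone as a block. Further fits used only the groups compared, or left out 14 high-count loci, the 2 libraries of highest background, or single libraries. Those loci had a mean of at least 1000 counts. Their share of each library's counts correlated with that of Cdk8 at r of at least 0.95. Clones pair the libraries by their labels; same-clone residuals correlated at a mean of 0.0859 over 40 pairs and different-clone residuals at -0.0425 over 80. The members and lists were chosen with earlier results of these data known. Genes named are the members, their neighbours, 4 ERK targets and Mapk3 as checks, up to 4 genes of smallest adjusted p per list and comparison, Ehd2, Pacsin2, Cav3, Cavin4, Flot1 and Flot2, and the 5 genes most like Cavin1 (average log2 CPM of at least 1, prior count 2).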

Additional observations from a re-analysis of the deposited data

Results flagged for a closer look

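The response to 4OHT differed between PP1 and MEKi for Cavin1, by a test of the difference itself. Of the 47 listed genes 5 were called in this interaction, 2 higher and 3 lower. Among all genes tested 7.41% were called higher and 4.86% lower, so the listed genes did not stand out by number. The 4OHT effect was larger with PP1 in Cavin1 (1.89 ± 0.37 on the log2 scale, edgeR adjusted p = 0.00374) and Stom (1.20 ± 0.29, edgeR adjusted p = 0.00659). Picalm, a clathrin assembly protein, differed in the same direction by 0.32 ± 0.10 (edgeR adjusted p = 0.0285). It was lower with PP1 in Egfr (-0.75 ± 0.18, edgeR adjusted p = 0.0073), Epn2 (-0.59 ± 0.12, edgeR adjusted p = 0.00118) and Abl1 (-0.36 ± 0.12, edgeR adjusted p = 0.0499). Cavin1 was still called when scaled by library totals alone (1.83, edgeR adjusted p = 0.000279), and none of the 5 listed genes was. Leaving out single libraries ended the call of Abl1 in 8 of 12 fits (adjusted p up to 0.109) and of Picalm in 9 of 12 (up to 0.112), and that of the other named genes in none.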

How the results depend on the processing

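Cavin1 kept its call with PP1 and 4OHT over PP1, over MEKi with 4OHT and in the interaction under every alternative run. With a library left out the log2 values ran from 1.73 to 2.31, 1.85 to 2.01 and 1.60 to 2.21, and library totals gave 1.81 for the second. Its value for 4OHT against DMSO ran from 5.83 to 6.30 with a library left out. Values that missed the threshold changed sign in places. Cavin1, PP1 against MEKi without 4OHT, was -0.023 with library totals, -0.0085 with limma-voom and -0.0164 without the 2 libraries of highest background, and -0.29 to 0.32 with a library left out; its 4OHT effect with MEKi ran from -0.15 to 0.37. Cavin3 with PP1 was 0.0101 with library totals. Without those 2 libraries Cavin3 was 0.30 for PP1 against MEKi with 4OHT, 0.32 without 4OHT and -0.0199 for the interaction. With a library left out it ran from -0.97 to 0.35 (MEKi), -0.25 to 0.10 (PP1), -0.35 to 0.30, -0.99 to 0.32 and -0.45 to 0.85.

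Library totals called 1130 genes for the 4OHT effect with MEKi (2188 in the reported fit), 2668 with PP1 (4661), 2153 and 3 for PP1 against MEKi with and without 4OHT (4199 and 11) and 514 for the interaction (1829). The share called higher moved from 52.1% to 82.9% with MEKi, from 59.0% to 76.6% with PP1, from 53.9% to 30.7% for PP1 against MEKi with 4OHT and from 49.4% to 21.1% for 4OHT against DMSO. The 4OHT effect with MEKi gave 1051 without the 2 libraries of highest background and 1380 to 1980 with a library left out, the lowest without MEKi clone a, and 1437 without MEKi with 4OHT clone c. PP1 against MEKi without 4OHT gave 20 with DESeq2, 3 with only the groups compared and 6 to 13 with a library left out. The cause was not tested. With the clone as a block, Cavin1 was at 1.99, 1.92 and 1.89 in the 3 called comparisons (edgeR adjusted p = 0.000257, 0.000158 and 0.0107), and no call of a named result was lost; listed genes higher for PP1 against MEKi with 4OHT went from 3 to 5. Counts of 0 to 11 left Cav1, Cav2 and Cavin2 under the filter and without a test. Their pooled levels are low with wide intervals, and only an upper limit where a group had 0 counts.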

Other observations

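The largest counts of Cav1 (11) and of Cav3 (6) lay in the same library, PP1 clone b, where Cav2 had 1 count. Gm45667, on the strand opposite Cavin3, stood at 0.966 ± 0.204 CPM with DMSO (10 and 12 counts, n = 2) and 0.117 ± 0.203 with 4OHT (0 to 3 counts, n = 3), while Cavin3 was at 0.833 ± 0.131 and 0.940 ± 0.231 CPM. Gm45667 was under the filter and was not tested.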
